A study of Brachypodium distachyon with 214 samples.

Results

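Leaf transcripts of 9 genes linked to abscisic acid (ABA) and drought were followed in the annual grass Brachypodium distachyon. The study's text names these genes in 1 co-expression module that was inferred from droughted Bd21 plants, and they were found here by locus name, 9 of 32523 rows of the count table. All 9 were among the 26164 genes tested. The values that chose them are therefore mainly the correlations among droughted Bd21 plants, which are given below as a description with no test. The study names the genes while describing a network drawn within the module, and that network also used plants of the other groups. By overlap of whole gene lists, the study classes this module as found only in droughted Bd21 plants. Pairwise correlations of 9 named genes are another measure and do not test that class. Group means were not used to infer the module, but the study picked the genes on these same plants, so their responses are not independent evidence of a drought role.

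Each of 214 plants gave 1 library from its leaf tissue. The 4 groups combined 2 inbred accessions with 2 waterings: 49 droughted Bd21, 48 control Bd21, 59 droughted Bd3-1 and 58 control Bd3-1 plants. Droughted plants were dried for 6 days from day 33 after sowing to 55% of field capacity, the water a soil holds after draining, while control plants were held at 85%. Bd21 is the accession whose genome serves as the reference of the species, and Bd3-1 reads too were mapped to its transcripts. The part that this mapping had in any difference between the accessions was not tested. Nothing in the labels pairs plants of different groups. The study's sample table gives each plant 1 of 4 experiment batches and 1 of 3 RNA-seq plates. These are called growth batches and sequencing plates below.

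Libraries were sequenced as tags near the 3′ end of each transcript with molecular identifiers, and the total count ranged from 0.525 to 8.37 M, in units of 1e6 counts, with a median of 1.92 M. Control Bd21 replicate 10 held the highest total, and the next held 3.05 M. Plastid sequences took 4.76 to 9.66% of the counts, and Bradi4g31257, a chlorophyll a/b binding protein typical of leaf, had 42.4 to 218 normalized counts with a median of 111. The library labelled Bd3-1 drought replicate 59 stood apart. Of 100 genes whose levels separated all 97 Bd21 from the other 116 Bd3-1 libraries, it lay inside the Bd21 range in 95 and inside the Bd3-1 range in 1. It was kept, and leaving it out changed the call of none of the 9 genes in any of the 7 comparisons.

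ABA is the hormone with which a leaf answers water shortage. Its synthesis from carotenoids is limited by 9-cis-epoxycarotenoid dioxygenase (NCED), and it is broken down by ABA 8′-hydroxylases of the CYP707A family. When ABA binds its receptors, these inhibit clade A protein phosphatases 2C, which otherwise hold SnRK2 kinases inactive. The freed kinases activate bZIP transcription factors and act on ion channels of guard cells, so that stomata close. Genes for breakdown enzymes, phosphatases and transcription repressors are themselves induced by ABA in Arabidopsis, which gives the pathway negative feedback. Late embryogenesis abundant (LEA) proteins protect cell contents during drying, and cuticular wax limits water loss through the leaf surface. Roles given below are those of the Arabidopsis orthologs or families that the study assigns, and they were not checked here.

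Levels are expected counts divided by a size factor of the library, called normalized counts. The drought effect, drought over control with accession as a second term, was tested with edgeR's quasi-likelihood test at an adjusted p of 0.05 over all tested genes. Drought changed all 9 genes, 8 upward and 1 downward, where 38.1% of all tested genes were called (19.5% higher and 18.6% lower). The median log2 fold change of the 9 genes was 1.63, against 0.01 over all tested genes, whose median absolute value was 0.17. Of the 9 genes, 6 rose by at least 1 on the log2 scale, against 1.66% of tested genes, and 3 by at least 3, against 0.0764%. In bulk leaf, a change in the amount of a cell type cannot be told apart from a change in RNA per cell. The plot of normalized counts by group shows every plant.

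**Figure D1:**
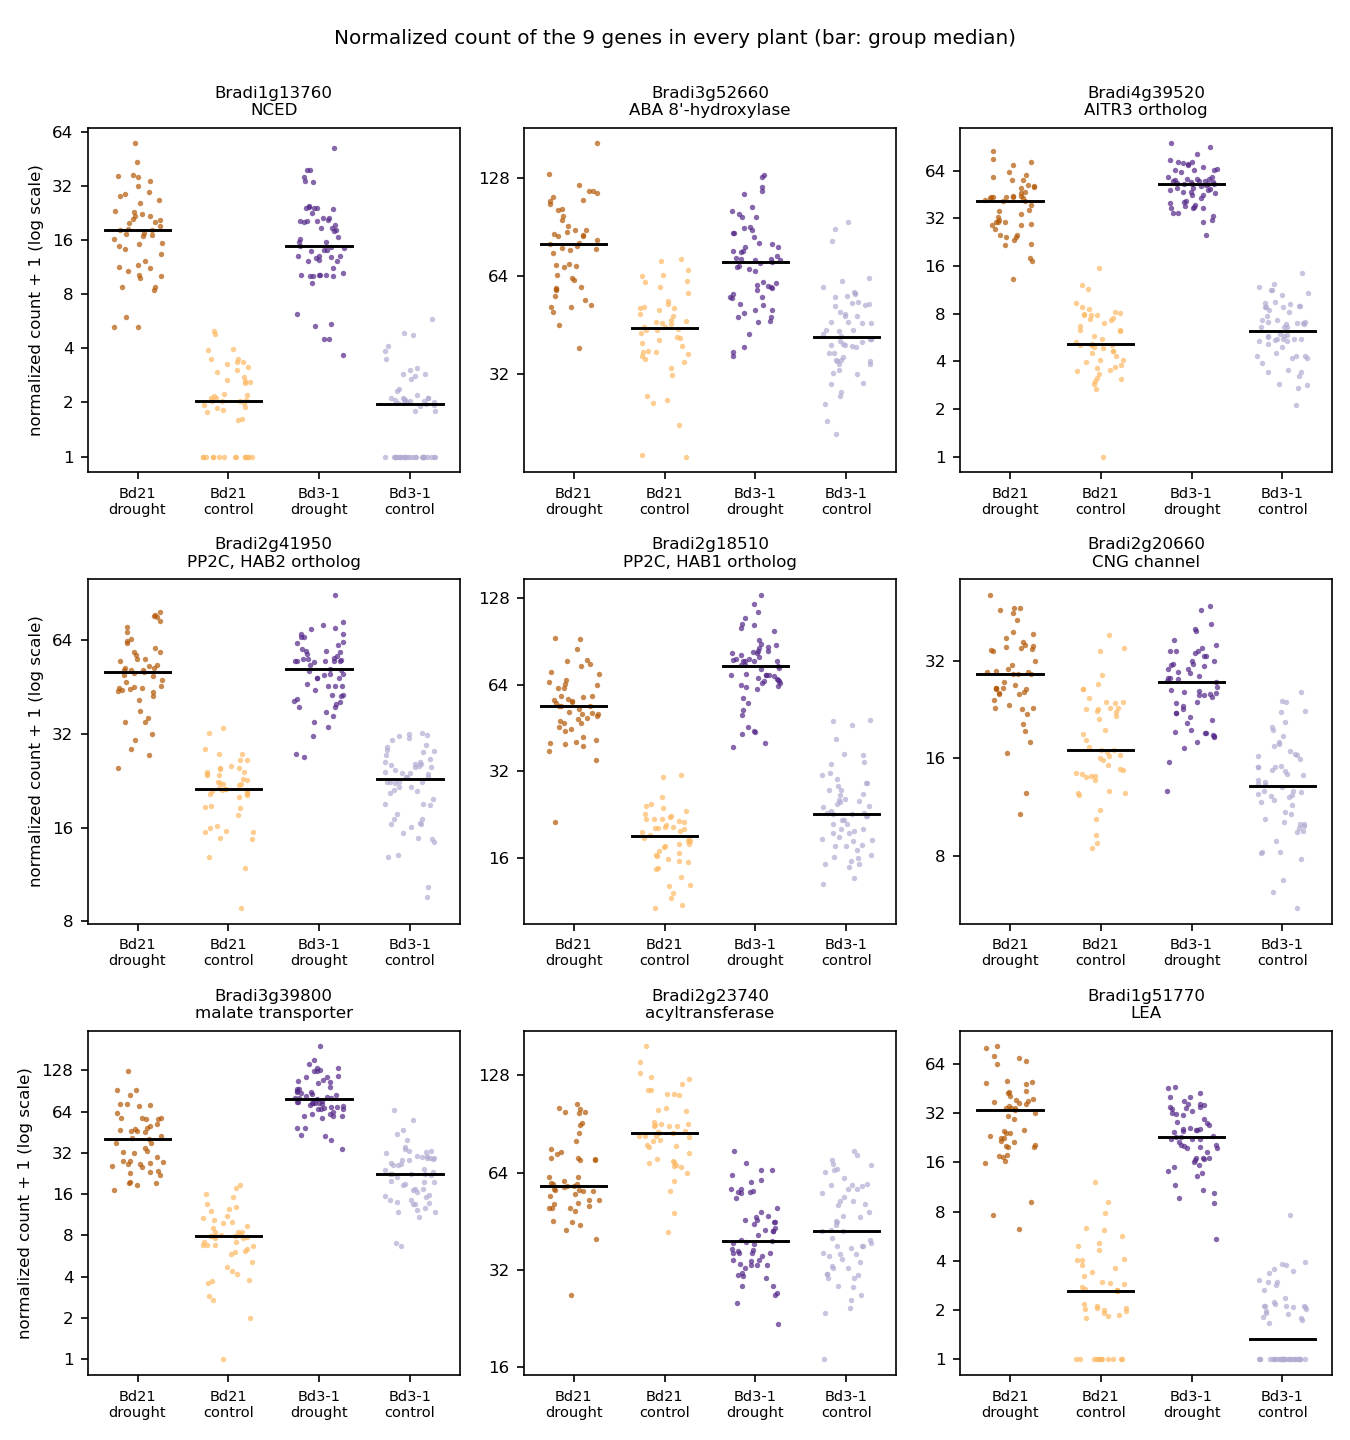
Normalized counts plus 1 on a log scale for each gene, with 1 point per plant and a bar at the group median, in droughted Bd21 (n = 49), control Bd21 (n = 48), droughted Bd3-1 (n = 59) and control Bd3-1 plants (n = 58). The 8 genes that rose sit higher in drought in both accessions, and the acyltransferase gene Bradi2g23740 sits lower in drought in Bd21, at a median of 57.2 against 84.1.

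Bradi1g13760 is the NCED gene of the module and stands at the entry to ABA synthesis. Droughted Bd21 plants held 4.24 to 54.3 normalized counts with a median of 17.2, against 0 to 3.98 with a median of 1.04 in control Bd21 plants. Droughted Bd3-1 plants held 2.67 to 50.8 with a median of 13.9, against 0 to 4.85 with a median of 0.956 in control Bd3-1 plants. In Bd21 the groups did not overlap, which was true of 0.00764% of tested genes, and in Bd3-1 54 of 59 droughted plants lay above the highest control. Its log2 fold change was 3.95 ± 0.14 (SE, adjusted p = 1.2e-69), a 15.5-fold rise. Well-watered leaves held few counts of it. Each control Bd21 library held at most 3 counts and 14 of 48 held none, while in control Bd3-1 25 of 58 held none. The 48 control Bd21 libraries together held 57 counts of it and the 49 droughted ones 1013.

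Bradi3g52660 is the ortholog of CYP707A1, an ABA 8′-hydroxylase, and so encodes the breakdown step. It had 37.6 to 162 normalized counts in droughted Bd21 plants with a median of 79.3, against 16.9 to 71.3 with a median of 43.4 in control Bd21 plants. In droughted Bd3-1 plants it had 35.4 to 129 with a median of 70.0, against 20.1 to 92.8 with a median of 40.6 in control Bd3-1 plants. The groups overlapped in both accessions, yet 48 of 49 droughted Bd21 plants and 56 of 59 droughted Bd3-1 plants lay above the control median. The rise was 1.72-fold (log2 fold change 0.79 ± 0.06, adjusted p = 4.5e-28). This was the smallest rise among the 8 genes that rose.

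The next 3 genes encode regulators of the ABA signal. Bradi4g39520, ortholog of the ABA-induced transcription repressor AITR3, had 12.3 to 84.3 normalized counts in droughted Bd21 plants with a median of 40.2, against 0 to 14.6 with a median of 4.13 in control Bd21 plants. Droughted Bd3-1 plants had 24.0 to 94.4 with a median of 51.8, against 1.12 to 13.5 with a median of 5.25 in control Bd3-1 plants. The Bd3-1 groups did not overlap (0.0115% of tested genes), and in Bd21 48 of 49 droughted plants lay above the highest control. It rose 8.67-fold (log2 fold change 3.12 ± 0.08, adjusted p = 2.8e-96), the smallest adjusted p among the 9 genes.

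Both protein phosphatase 2C genes rose, each in every droughted plant relative to the control median of its accession. Bradi2g18510, the HAB1 ortholog, had 20.3 to 92.2 normalized counts in droughted Bd21 plants with a median of 53.1, against 9.75 to 30.0 with a median of 18.0 in control Bd21 plants. In Bd3-1 it had 37.9 to 130.2 with a median of 73.3 under drought, against 12.1 to 47.2 with a median of 21.8 under control. Few droughted plants reached down to control levels, since 48 of 49 in Bd21 and 53 of 59 in Bd3-1 lay above the highest control, and the gene rose (log2 fold change 1.63 ± 0.06, adjusted p = 2.9e-75). Bradi2g41950, the HAB2 ortholog, had 23.9 to 77.9 with a median of 49.6 in droughted Bd21 plants, against 7.84 to 32.4 with a median of 20.4 in control Bd21 plants. Plants of droughted Bd3-1 had 26.0 to 88.5 with a median of 50.7, against 8.56 to 31.3 with a median of 21.9 in control Bd3-1 plants. It rose as well (log2 fold change 1.26 ± 0.05, adjusted p = 7.2e-63), with 44 of 49 and 56 of 59 droughted plants above the highest control of Bd21 and of Bd3-1. No control library had 3 or fewer counts of either phosphatase gene.

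The next 2 genes are annotated for stomatal movement. Bradi3g39800 encodes a malate transporter of the tonoplast, the vacuole membrane across which guard cells move the anion as they change volume. Droughted Bd21 plants had 16.0 to 125 normalized counts with a median of 39.4, against 0 to 17.6 with a median of 6.88 in control Bd21 plants. Droughted Bd3-1 plants had 33.3 to 191 with a median of 78.3, against 5.66 to 65.0 with a median of 21.5 in control Bd3-1 plants. Every droughted plant lay above the control median, and 48 of 49 and 46 of 59 lay above the highest control of Bd21 and of Bd3-1. The rise was 4.30-fold (log2 fold change 2.11 ± 0.09, adjusted p = 9.2e-60).

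Bradi2g20660 belongs to the family of cyclic nucleotide gated channels, which pass cations across membranes. It had 9.81 to 50.3 normalized counts in droughted Bd21 plants with a median of 28.1, against 7.46 to 37.6 with a median of 16.0 in control Bd21 plants. In droughted Bd3-1 it had 11.7 to 46.5 with a median of 26.7, against 4.52 to 24.7 with a median of 12.2 in control Bd3-1 plants. The groups overlapped widely in Bd21, where 8 of 49 droughted plants exceeded the highest control, and less in Bd3-1, where 33 of 59 did. It rose 1.83-fold (log2 fold change 0.87 ± 0.06, adjusted p = 5.2e-29).

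Bradi1g51770, the LEA gene, had the largest drought fold of the 9. It had 5.22 to 81.2 normalized counts in droughted Bd21 plants with a median of 32.3, against 0 to 11.2 with a median of 1.62 in control Bd21 plants. In droughted Bd3-1 plants it had 4.45 to 45.2 with a median of 22.04, against 0 to 6.58 with a median of 0.329 in control Bd3-1 plants. All droughted plants lay above the control median and 46 of 49 and 58 of 59 above the highest control of Bd21 and of Bd3-1. The rise was 19.0-fold (log2 fold change 4.25 ± 0.14, adjusted p = 3.5e-78). Like the NCED gene it had few counts in watered leaves, with none in 12 of 48 control Bd21 and 29 of 58 control Bd3-1 libraries.

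Bradi2g23740, an acyltransferase of the HXXXD family placed by the study in wax synthesis, was the 1 gene that fell. Droughted Bd21 plants had 25.7 to 104 normalized counts with a median of 57.2, against 40.9 to 157 with a median of 84.1 in control Bd21 plants. Droughted Bd3-1 plants had 20.7 to 73.8 with a median of 38.3, against 15.9 to 73.6 with a median of 41.3 in control Bd3-1 plants. In Bd21 41 of 49 droughted plants lay under the control median and the ranges overlapped, while in Bd3-1 33 of 59 lay under it. Over both accessions its log2 fold change was -0.27 ± 0.06 (adjusted p = 2.4e-05). Reads of this gene were shared with other transcripts, since 50.9% of its estimates above 0 were not whole numbers, against 0 to 16.2% in the other 8 genes, so its level is uncertain.

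Within the accessions, drought raised 8 of the 9 genes in Bd21 and the same 8 in Bd3-1, where 11.6% of tested genes in Bd21 and 16.7% in Bd3-1 were called higher. Calls in either direction made up 22.3% in Bd21 and 30.8% in Bd3-1. It lowered the acyltransferase gene in Bd21 (log2 fold change -0.48 ± 0.08, adjusted p = 1.9e-07), where 10.7% of tested genes were called lower, and the gene did not pass in Bd3-1 (-0.05 ± 0.08, adjusted p = 0.70, 95% interval -0.21 to 0.11). The median over the 9 genes was 1.61 in Bd21 and 1.67 in Bd3-1, against 0.01 and 0.02 over all tested genes. In Bd21 6 genes rose by at least 1 on the log2 scale, against 1.75% of tested genes. These 6 and the channel gene, at 1.06, did so in Bd3-1, against 2.29%. The NCED, AITR3 and LEA genes rose by at least 3 on the log2 scale in both accessions, which 0.0688% of tested genes did in Bd21 and 0.0956% in Bd3-1.

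**Figure D2:**
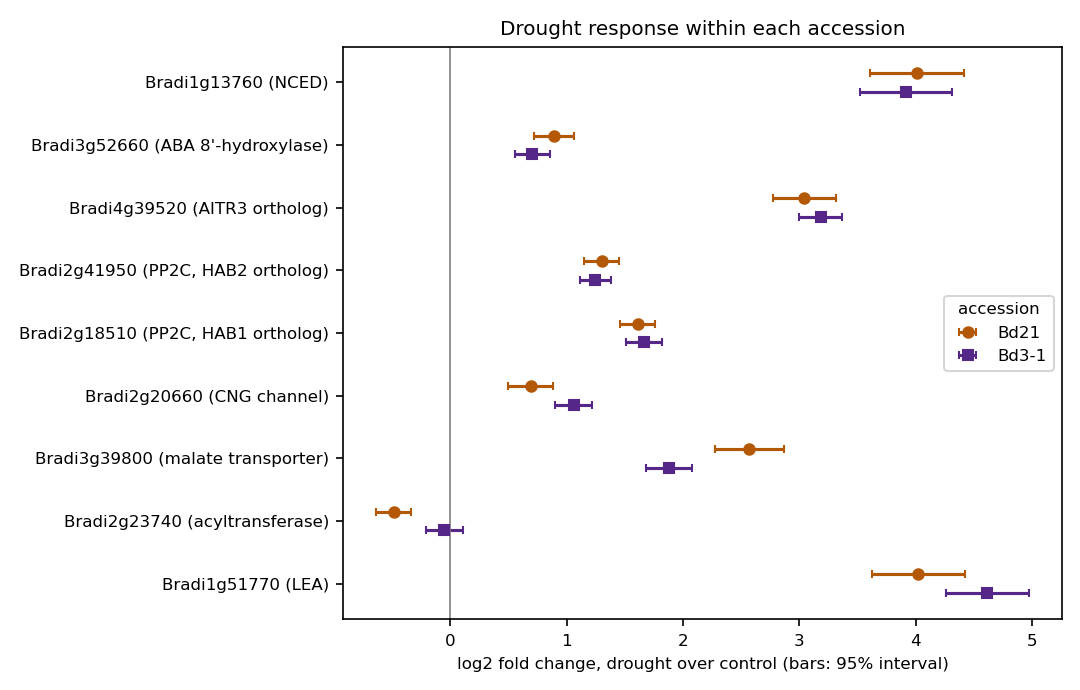
Log2 fold change of each gene, drought over control, in Bd21 (circles) and Bd3-1 (squares), with bars for the 95% interval. The intervals are apart for the malate transporter Bradi3g39800, at 2.57 in Bd21 and 1.88 in Bd3-1, for the acyltransferase Bradi2g23740, at -0.48 in Bd21 and -0.05 in Bd3-1, and narrowly for the channel Bradi2g20660, at 0.69 in Bd21 and 1.06 in Bd3-1.

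The difference between the 2 responses was tested itself, as an interaction term at an adjusted p of 0.1, a threshold that 1.65% of tested genes passed. Of the 9 genes 2 passed, 1 in each direction, where 0.55% of tested genes passed as higher and 1.1% as lower. The malate transporter gene Bradi3g39800 rose more in Bd21 (2.57 ± 0.15) than in Bd3-1 (1.88 ± 0.10), a difference of 0.69 ± 0.19 (adjusted p = 0.028), and it did so against a lower level in Bd21 in both waterings. The acyltransferase gene Bradi2g23740 had a lower response in Bd21, with a difference of -0.43 ± 0.11 (adjusted p = 0.024). Neither passed once every library was thinned to the total of the shallowest, with differences of 0.76 (adjusted p = 0.23) and -0.47 (adjusted p = 0.16). Of the genes that did not pass, the channel gene Bradi2g20660 rose by 0.69 ± 0.10 in Bd21 and 1.06 ± 0.08 in Bd3-1, a difference of -0.36 with a 95% interval of -0.61 to -0.11 before adjustment (adjusted p = 0.17). For the phosphatases the interval of the difference ran from -0.28 to 0.18 for Bradi2g18510 and from -0.14 to 0.26 for Bradi2g41950. It was widest for the low-count NCED gene, from -0.81 to 0.99. That width rests on the approximated SE, which is unsteady for an estimate as near 0 as the 0.09 of this gene. Within the accessions the NCED gene rose by 4.01 ± 0.21 in Bd21 and 3.91 ± 0.20 in Bd3-1. The LEA gene rose by 4.02 ± 0.20 in Bd21 and 4.62 ± 0.18 in Bd3-1, and its difference of -0.60 (-1.26 to 0.06) did not pass.

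Levels also differed between the accessions. Over both waterings 6 of the 9 genes passed, 3 higher and 3 lower in Bd21 than in Bd3-1, where 45.9% of tested genes passed (24.1% higher and 21.8% lower). In droughted plants 3 were higher and 3 lower, where 35.6% passed (18.9% higher and 16.7% lower). In control plants 3 were higher and 2 lower, where 33.5% passed (18.0% higher and 15.6% lower). Levels of the 2 accessions overlapped for all 9 genes in both waterings, while they did not overlap for 0.0306% of tested genes in droughted and 0.52% in control plants (0.352% higher in Bd21). The droughted share was counted with Bd3-1 drought replicate 59 kept in its group. That library lay inside the Bd21 range in 95 of 100 genes that separated the other libraries by accession. The droughted and control shares are therefore not comparable. The malate transporter gene stood apart most, with log2 fold changes, Bd21 over Bd3-1, of -0.94 ± 0.11 under drought (adjusted p = 1.8e-12) and -1.65 ± 0.14 under control (adjusted p = 2.0e-20). All 48 control Bd21 plants lay under the control median of Bd3-1 and 45 of 49 droughted Bd21 plants under its drought median, and its 4 groups ran from droughted Bd3-1 through droughted Bd21 and control Bd3-1 to control Bd21 with each step larger than the SD within groups. The acyltransferase gene was higher in Bd21 by 0.60 ± 0.08 under drought (adjusted p = 3.7e-11) and 1.02 ± 0.08 under control (adjusted p = 5.4e-22).

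The other differences between accessions were smaller. The HAB1 ortholog Bradi2g18510 was lower in Bd21, with a log2 fold change, Bd21 over Bd3-1, of -0.43 ± 0.07 under drought (adjusted p = 4.0e-07) and -0.38 ± 0.08 under control (adjusted p = 8.1e-05). The AITR3 ortholog Bradi4g39520 was lower in droughted Bd21 plants (log2 fold change -0.38 ± 0.09, adjusted p = 0.00037), and in control plants the difference was -0.23 ± 0.14 (adjusted p = 0.22). The LEA gene Bradi1g51770 was higher in Bd21 in both waterings, by 0.53 ± 0.13 under drought (adjusted p = 0.00037) and 1.15 ± 0.29 under control (adjusted p = 0.00081). After thinning, the control differences of the HAB1 ortholog and the LEA gene no longer passed, at -0.30 for the HAB1 ortholog (adjusted p = 0.090) and 0.49 for the LEA gene (adjusted p = 0.34). Over all alternatives the difference lay between -0.39 and -0.30 for the HAB1 ortholog and between 0.49 and 1.36 for the LEA gene. The channel gene Bradi2g20660 was higher in control Bd21 plants by 0.48 ± 0.10 (adjusted p = 3.6e-05) and did not pass in droughted plants (0.12 ± 0.08, adjusted p = 0.24). The breakdown gene Bradi3g52660 was higher in droughted Bd21 plants by 0.21 ± 0.08 (adjusted p = 0.035), a call lost with DESeq2 (adjusted p = 0.0502) and after thinning (adjusted p = 0.136). For the NCED gene and the HAB2 ortholog no accession difference passed in either watering. The mean log2 levels of NCED in droughted Bd21 and droughted Bd3-1 plants were 0.199 apart, against an SD of 0.791 among plants, and those of the HAB2 ortholog 0.0339 apart, against an SD of 0.398.

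Droughted plants of 1 accession were not alike, and the genes differed in how much they varied. The coefficient of variation (CV) of the NCED gene was 55.2% in droughted Bd21 and 57.4% in droughted Bd3-1 plants, where counting alone gives 23.0% and 25.1%. The LEA gene had 54.1% and 41.4%, and the malate transporter 53.2% and 35.7%. The AITR3 ortholog varied by 40.2% in droughted Bd21 and 28.0% in droughted Bd3-1 plants, with a counting CV of 15.8% and 14.1%. Lowest were the phosphatases, at 23.8 to 26.9% with a counting CV of 11.8 to 14.2%. In control plants the CV of the NCED gene, 89.9% in Bd21 and 119% in Bd3-1, was close to the 92.7% and 107% that counting gives. No difference in CV between groups was tested.

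Correlations across plants were computed on log2(normalized count + 1) for the 36 pairs of the 9 genes within each group. The median r was 0.526 in droughted Bd21 plants, 0.0222 in control Bd21, 0.270 in droughted Bd3-1 and 0.0568 in control Bd3-1 plants. Over all pairs of the 11938 tested genes with a mean of at least 10 normalized counts, the median r lay between -0.003 and -0.0025 in the 4 groups, and a pair at the 90th percentile had an r of 0.225 to 0.248. The heat map of pairwise r shows each pair.

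**Figure D3:**
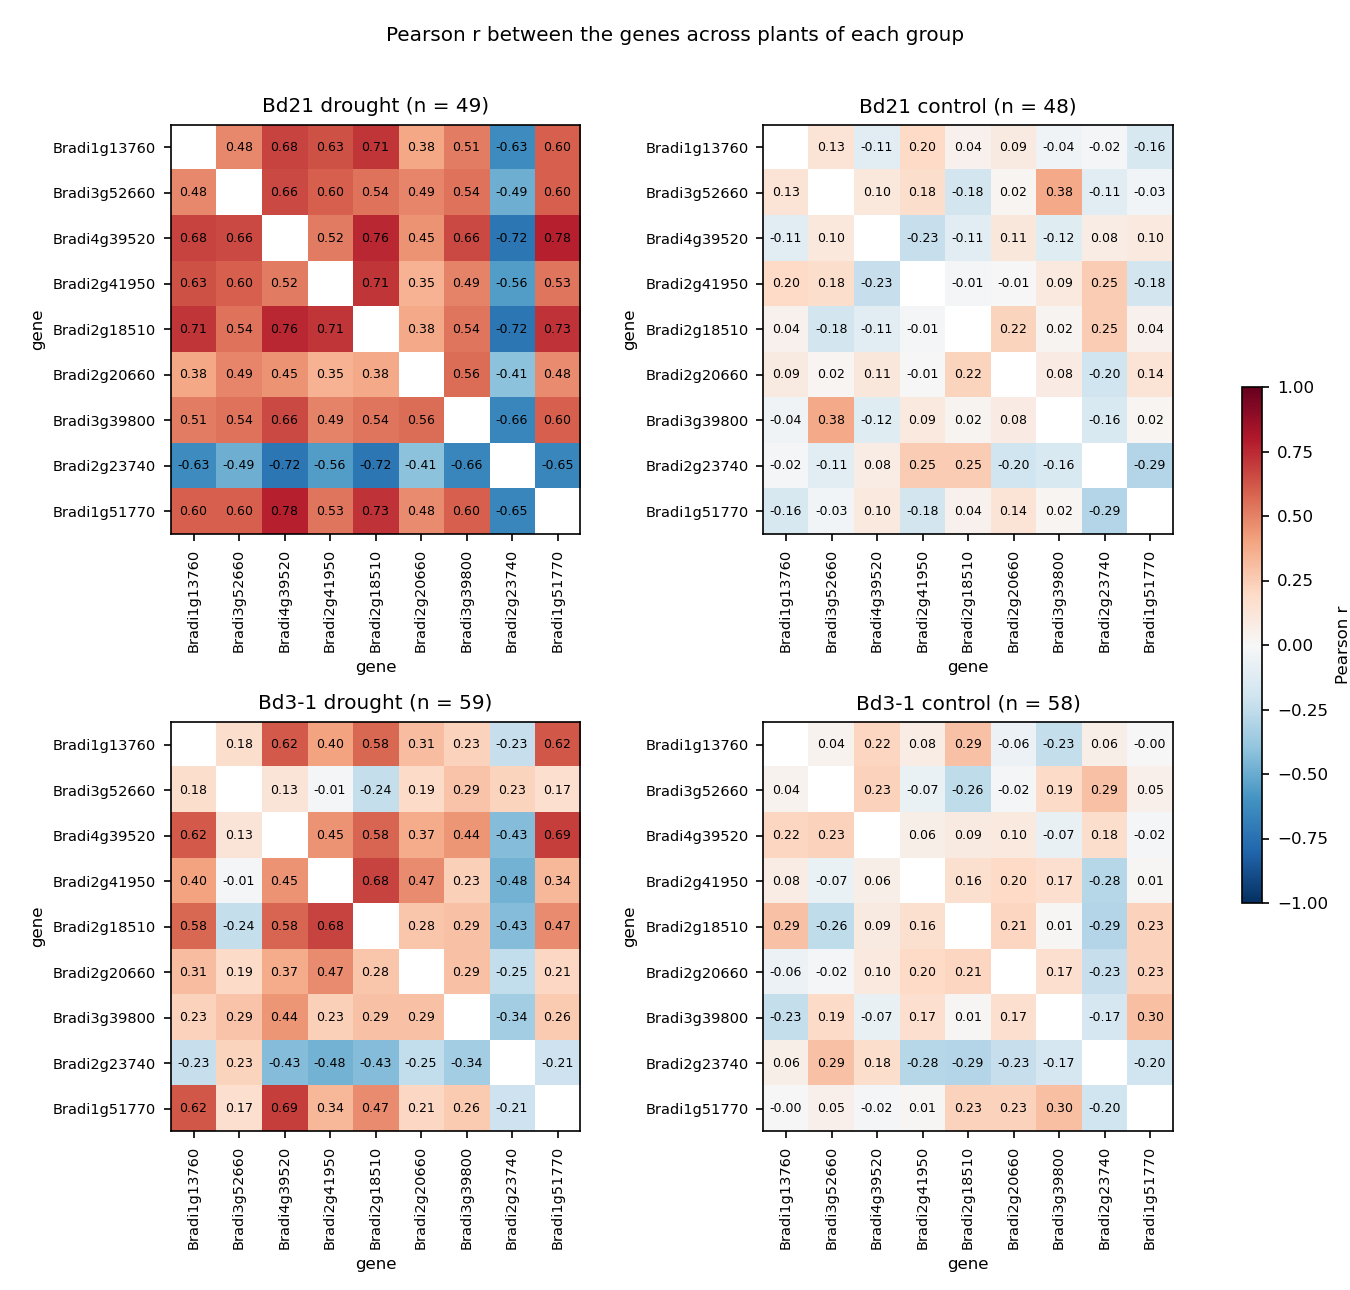
Pearson r between each pair of the 9 genes across the plants of a group, with drought at the left and control at the right, Bd21 above and Bd3-1 below, and colour running from -1 (blue) to 1 (red). Droughted Bd21 plants show r up to 0.78 among 8 genes and negative r throughout the row of Bradi2g23740, droughted Bd3-1 plants show a paler form, and control plants show r no higher than 0.38.

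In droughted Bd21 plants, the plants that defined the module, 20 of 36 pairs had an r above 0.5 and the 8 negative pairs were those of the acyltransferase gene. The AITR3 ortholog and the LEA gene had the highest r, 0.775, and the AITR3 and HAB1 orthologs 0.757. The AITR3 ortholog followed the mean of the other 8 genes most closely (r = 0.792) and the channel gene least among those that rose (0.536). The acyltransferase gene ran against the mean of the others at -0.765, with an r between -0.723 and -0.408 with each of them. These values carry no test, since they chose the genes.

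Droughted Bd3-1 plants were not used to infer the module, but the study's network within it also used them. Correlations in these plants were tested by 2-sided permutation with 100000 resamples, adjusted over the 108 pairs of the 3 groups other than droughted Bd21. Since the genes are named from that network, these tests are not fully independent of the choice. Of the 36 pairs 15 passed at an adjusted p of 0.05 by Pearson's r, 12 positive and 3 negative, and 15 passed by Spearman's rho. The share of all gene pairs that would pass this test was not computed. The 90th percentile of r over all pairs in this group was 0.2365. The AITR3 ortholog and the LEA gene again had the highest r, 0.689 (rho = 0.639), and the HAB1 and HAB2 orthologs had an r of 0.676 (rho = 0.609). The NCED gene followed the LEA gene at 0.622 (rho = 0.548) and the AITR3 ortholog at 0.616 (rho = 0.587). The permutation p of r was 1e-05 for each of these 4 pairs, the smallest that the resamples can give, which adjusted to 0.000216, and their adjusted p of rho ran from 0.00027 to 0.000864. Without the 2 plants farthest from the median of the first gene the 4 values were between 0.518 and 0.646. Without Bd3-1 drought replicate 59 they lay between 0.630 and 0.690. After growth batch and sequencing plate were regressed out they lay between 0.570 and 0.662, and in libraries thinned to 1 total between 0.289 and 0.371.

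The breakdown gene Bradi3g52660 was the exception in droughted Bd3-1 plants. In droughted Bd21 plants its r with the 7 other genes that rose was 0.482 to 0.659, and in droughted Bd3-1 plants its r with the mean of the other 8 was 0.204, its highest r was 0.287 with the malate transporter gene, and none of its 8 pairs passed. With the HAB1 ortholog the value was 0.543 in droughted Bd21 and -0.235 in droughted Bd3-1 plants (permutation p = 0.0736, adjusted 0.210). Its level in droughted Bd3-1 plants also had an r of -0.476 with the log2 total count of the library, against 0.177 in droughted Bd21 plants. The shallowest library of all, at 0.525 M, is in the droughted Bd3-1 group, and the r of -0.476 was not recomputed without it. After a regression on log2 total count, an alternative chosen after seeing the data, the r of the breakdown gene with the other 8 genes in droughted Bd3-1 plants lay between -0.194 with the HAB1 ortholog and 0.304 with the malate transporter gene. Without replicate 59, which held the group's highest level of the breakdown gene, the r with these 2 genes was -0.195 and 0.360. After growth batch and sequencing plate were regressed out it was -0.222 and 0.423. The difference between the accessions in r was not tested, because droughted Bd21 plants chose the genes.

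The acyltransferase gene kept a negative r with 7 of the other 8 genes in droughted Bd3-1 plants, from -0.475 with the HAB2 ortholog (rho = -0.492, permutation p = 0.00018, adjusted 0.00228) to -0.208 with the LEA gene (adjusted p = 0.255). Its relation to the HAB2 ortholog differed between growth batches, from an r of 0.120 in batch 2 to -0.422 in batch 3, and this difference was not tested. The r of the acyltransferase gene and the HAB2 ortholog in droughted Bd3-1 plants was -0.0416, 0.120, -0.422 and -0.365 in batches 1 to 4 (n = 14, 15, 15 and 15). It was -0.132 after batch and sequencing plate were regressed out. The same regression left the other 2 negative pairs that had passed at -0.208 with the AITR3 ortholog, against -0.432 before, and at -0.199 with the HAB1 ortholog, against -0.433 before. By contrast, the AITR3 ortholog and the LEA gene had an r of 0.614, 0.650, 0.611 and 0.834 in the same batches, and the HAB1 and HAB2 orthologs 0.482, 0.672, 0.438 and 0.650. The NCED gene and the LEA gene had 0.817, 0.676, 0.259 and 0.658, lowest in batch 3.

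In control plants no pair passed, with a highest r of 0.383 in Bd21 and 0.297 in Bd3-1. At an unadjusted permutation p of 0.05, 2 pairs passed in control Bd21 and 5 in control Bd3-1. By Spearman's rho none passed either. The phosphatase pair had an r of -0.013 in control Bd21 and 0.157 in control Bd3-1 plants, where the CV of the 2 genes was 24.3 to 35.2% and the counting CV 21.4 to 23.7%. Correlations in droughted plants were lower at lower depth. With all libraries thinned to 525071 counts, the median r was 0.269 in droughted Bd21 and 0.0623 in droughted Bd3-1 plants, and 3 of 36 pairs passed in droughted Bd3-1.

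Plants were also compared over the 9 genes together. Each gene was scaled within a group to a mean of 0 and an SD of 1 (z). The mean z includes the acyltransferase gene, which ran against the others, so it mixes opposed genes. Droughted Bd21 replicate 44, for example, had a mean z of 0.940 with an acyltransferase z of -2.96. In droughted Bd21 plants, replicate 3 had the highest mean z over the 9 genes, 1.05, with 8 genes above their mean, and replicate 36 the lowest, -1.41, with 8 genes below. In 9 of the 49 plants at least 8 genes were above their mean, and in 9 at least 8 were below. These counts restate the correlations that chose the genes, so they are no separate evidence of shared variation. In droughted Bd3-1 plants, replicate 10 had the highest mean z, 1.54, and replicate 58 the lowest, -1.22, and 4 of 59 plants had at least 8 genes above and 4 at least 8 below. The heat map of plants sorts them by this mean.

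**Figure D4:**
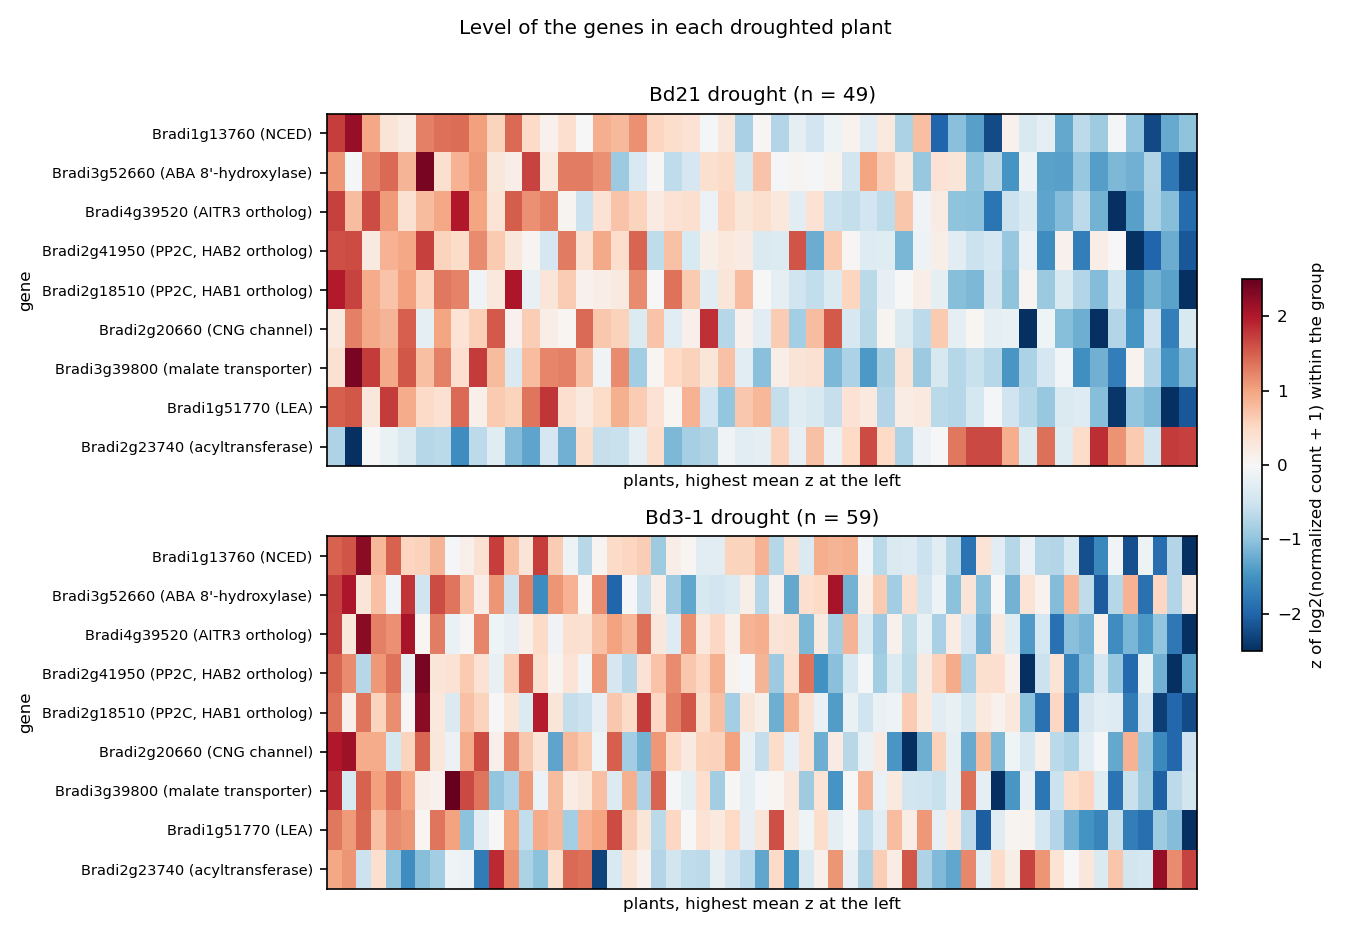
z of log2(normalized count + 1) of each gene (rows) in every droughted plant (columns, highest mean z at the left), for Bd21 (n = 49, above) and Bd3-1 (n = 59, below). Red cells lie above and blue cells below the group mean, and in Bd21 the acyltransferase row Bradi2g23740 goes mostly from blue to red where the other rows go mostly from red to blue.

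Levels differed between growth batches. In droughted Bd21 plants the mean log2 level of the AITR3 ortholog was 5.59, 5.43, 4.92 and 4.83 in batches 1 to 4, and that of the acyltransferase gene 5.73, 5.78, 6.12 and 6.28. In droughted Bd3-1 plants batch 4 again had the lowest mean of the AITR3 ortholog, 5.46, and the highest of the acyltransferase gene, 5.69. Within batches the median r of the 36 pairs was 0.365 to 0.631 in droughted Bd21 plants (n = 10 to 14) and 0.0744 to 0.281 in droughted Bd3-1 plants (n = 14 or 15). Each batch held 10 to 15 plants of every group, and the response to drought had the same sign in all of them for each of the 8 genes that rose.

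**Figure D5:**
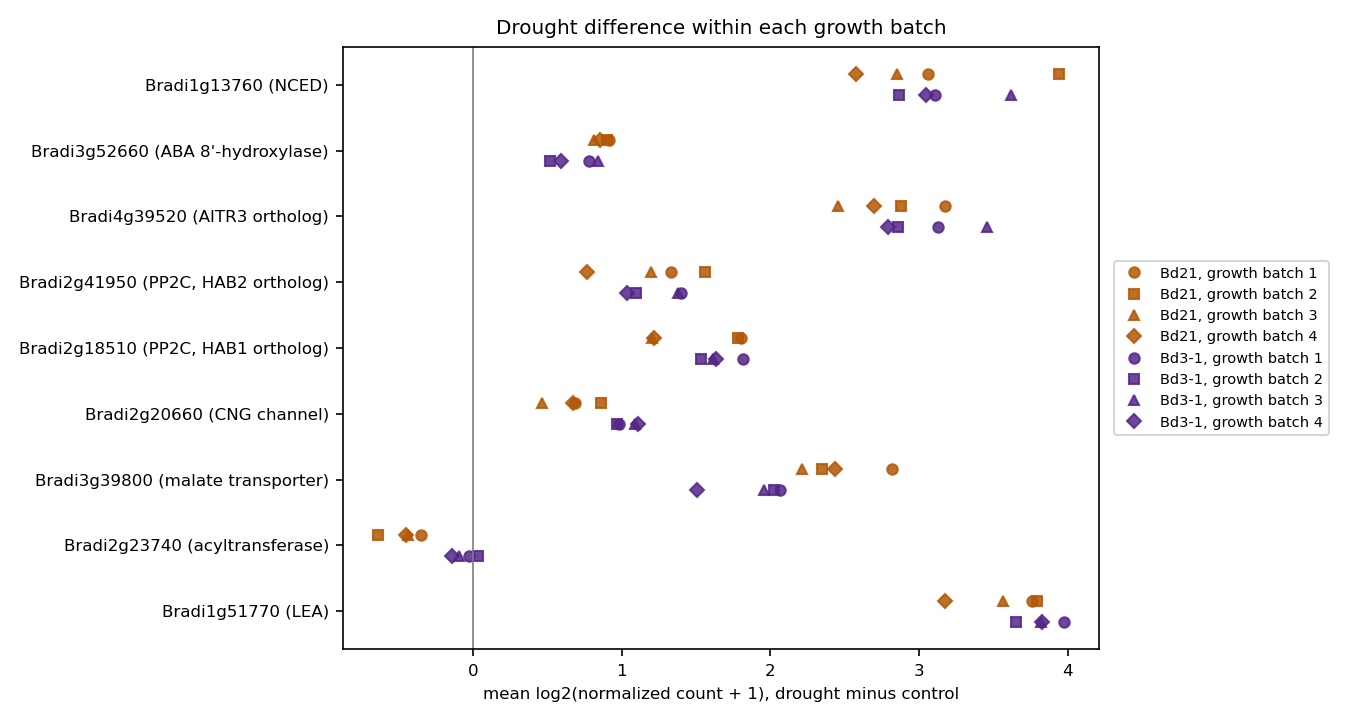
Mean log2(normalized count + 1), drought minus control, of each gene within the 4 growth batches (symbols) in Bd21 (orange) and Bd3-1 (purple). The 8 genes that rose lie right of 0 in every batch of both accessions, and Bradi2g23740 lies left of 0 in all 4 batches of Bd21, at -0.64 to -0.35, and on both sides of 0 in Bd3-1, at -0.14 to 0.03.

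Within growth batches, the drought difference of the NCED gene was 2.57 to 3.94 log2 units in Bd21 and 2.87 to 3.62 in Bd3-1, and that of the LEA gene 3.18 to 3.79 and 3.65 to 3.98. These values are on the log2(normalized count + 1) scale, which understates the change of genes with low controls. The malate transporter gene had 2.21 to 2.82 in Bd21 and 1.51 to 2.06 in Bd3-1, so that each Bd21 batch exceeded each Bd3-1 batch. Over the 3 sequencing plates its ranges overlapped, at 1.99 to 2.68 in Bd21 and 1.64 to 2.42 in Bd3-1.

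The module holds further genes that the study names, and all 4 of these rose under drought, as did 19.5% of all tested genes. They were Bradi3g50220, ortholog of the ABA-responsive homeobox gene ATHB-7 (log2 fold change 2.41 ± 0.07), Bradi2g15940, ortholog of the bZIP factor GBF2 (1.63 ± 0.08), the leucine-rich repeat gene Bradi3g00920 (2.86 ± 0.16) and Bradi4g40850 of unknown function (5.45 ± 0.26). Adjusted p was at most 5.3e-41 for the 4 genes. Of the 35 remaining genes on the study's list of the module, 29 rose and 4 fell, with a median log2 fold change of 1.03, where 19.5% of all tested genes were called higher and 18.6% lower. This list was chosen by the study on these plants, so its count is not independent evidence of a direction. All 4 genes that the study names in a second drought module also rose, where 19.5% of all tested genes were called higher. Among them is a pair of orthologs of the dehydrin gene RAB18. The median log2 fold change of these 4 genes was 2.49, against 0.01 over all tested genes. The study named them as drought-related on these same plants. Neither their count nor that of the 4 further genes of the first module is independent evidence of a direction.

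Each gene was also compared with all tested genes of at least 10 normalized counts, by the mean of its r in droughted Bd21 and droughted Bd3-1 plants. The LEA gene and the AITR3 ortholog were each other's nearest among the 9, and the AITR3 ortholog came first for the LEA gene over all 11937 genes compared (mean r = 0.732). The HAB1 ortholog came first for the HAB2 ortholog (0.694). The NCED gene was nearest to the ATHB-7 ortholog Bradi3g50220 (0.734), with r of 0.667 in droughted Bd21 and 0.801 in droughted Bd3-1 plants, although 96.2% of the estimates of Bradi3g50220 were not whole. The AITR3 ortholog was nearest to Bradi1g51245 (0.757), the malate transporter gene to Bradi3g00910 (0.722) and the HAB1 ortholog to Bradi3g39210 (0.707). For the breakdown gene the nearest was Bradi3g47010 (0.616), with none of the other 8 genes before rank 48. Lowest were the channel gene with Bradi4g30380 (0.516) and the acyltransferase gene with Bradi1g68010 (0.572), and these last 6 loci carry no name here. Among them Bradi1g51245, Bradi3g00910 and Bradi4g30380 are on the study's list of the same module. Estimates that were not whole made up 66.0% for Bradi3g00910 and 93.0% for Bradi1g68010. These values are descriptions over the plants that in part chose the genes.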

How the data were processed

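The authors' deposited table held expected counts per gene and library, made per the labels and methods with Trimmomatic 0.39, cutadapt 2.10, Bowtie2 2.4.0 and RSEM 1.3.3 on Bd21 primary transcripts and the plastid genome, after reads with the same molecular identifier were collapsed. Of the estimates above 0, 86.3% were whole numbers. Counts were rounded, and the 26164 genes above 0 in more than 10 libraries were tested with edgeR 4.0.16 (TMM factors, quasi-likelihood F-test, R 4.3.3), with Benjamini-Hochberg adjustment. DESeq2 1.42.0 was an alternative. Standard errors were approximated as the log2 fold change over the square root of F. Levels and correlations (numpy 2.4.6, scipy 1.17.1) used relative log expression factors and a pseudocount of 1. Growth batches and sequencing plates came from the study's sample table, which heads them Experiment Batch and RNAseq plate. The study's methods name a growth batch for leaf traits, and whether it is the same batch was not checked. The scripts were tested on simulated data. The 9 genes and all lists were chosen with earlier results of these data known. Plants sharing a replicate number were not paired. The alternatives tried are given in the closing section. The named genes were these 9, 4 further genes the study names in the module, and the nearest gene of each. No locus matched the reference table, so no coordinates or sequences are given.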

Additional observations from a re-analysis of the deposited data

Results flagged for a closer look

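For 2 of the 9 genes the response to drought differed between the accessions by the interaction term of edgeR's quasi-likelihood test. For the malate transporter gene Bradi3g39800 the log2 response in Bd21 minus that in Bd3-1 was 0.69 (adjusted p = 0.028, range over the alternatives 0.0071 to 0.23). For the acyltransferase gene Bradi2g23740 it was -0.43 (adjusted p = 0.024, range 0.0046 to 0.16), with 41 of 49 droughted plants under the control median in Bd21 and 33 of 59 in Bd3-1. In both genes the highest adjusted p came from libraries thinned to 1 total, with a difference of 0.76 and -0.47, as large as before thinning.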

How the results depend on the processing

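Alternatives were relative log expression factors, DESeq2, edgeR's filterByExpr, no filter, batch and plate terms, a replicate block, each of 2 libraries left out (Bd3-1 drought replicate 59 and Bd21 control replicate 10), and thinning to the lowest total, and for correlations also Spearman's rho and a pseudocount of 0.5. No called fold change of the 9 genes changed direction. Accession differences in control plants that had not passed crossed 0 for Bradi4g39520 (-0.28 to 0.03) and Bradi3g52660 (-0.01 to 0.05). Of the 15 pairs that passed in droughted Bd3-1, 1 changed sign, Bradi4g39520 with Bradi2g20660, at an r of -0.0737 after thinning against 0.369 before. Thinning left 3 of 9 genes called between control plants of the accessions and 0 for the interaction, while calls over all tested genes fell to 21.8% and 0.538%, against 33.5% and 1.65% before. It left 3 pairs correlated in droughted Bd3-1 plants, against 15 before, with 1 pair in control Bd3-1. With TMM log2 CPM 1 pair passed in control Bd21 plants. The replicate block uses numbers that no label describes as pairing plants. The median r of the deviations was 0.0427 to 0.127 between same-numbered libraries and -0.00746 to -0.0022 between differently numbered ones. What same-numbered libraries share was not tested. The block added 1 call, Bradi3g52660 higher in Bd21 over both waterings (log2 fold change 0.15, adjusted p = 0.021, against 0.12 and 0.074 without it), and changed no other. Without replicate 59, or without replicate 10, 16 pairs passed in droughted Bd3-1, as with TMM log2 CPM and a pseudocount of 0.5, and with batch and plate regressed out 10. A regression on log2 total count, added after seeing the data, left 15. Depth limits the NCED and LEA genes in control plants, and counting error is the only error that intervals of summed counts cover.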
